A study of Homo sapiens with 36 samples.

Results

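Cystine uptake and glutathione turnover were followed through 9 genes of the 57665 in the deposited tables: SLC7A11, SLC3A2, CHAC1, CHAC2, GCLC, GCLM, GSS, GSR and GPX4. The genes were chosen by symbol, taking the entry with the largest total count where a symbol was repeated, and all 9 passed the filter on low counts. The cells were U2OS, a human osteosarcoma line, carrying Dmr-PERK, in which the kinase domain of mouse PERK is joined to the DmrB dimerization domain. ATF4 knockout (KO) Dmr-PERK cells were treated with the dimerizer AP20187 for 2, 4, 8, 16 or 24 h or left untreated (0 h), and wild-type (WT) Dmr-PERK cells were treated or left untreated in the same way. Dimerised PERK phosphorylates eIF2α, which starts the integrated stress response and raises translation of the transcription factor ATF4. Each of the 12 groups held 3 wells, which made 36 RNA-seq libraries. All groups carried the construct and grew in medium with beta-mercaptoethanol, a thiol that can carry cysteine into cells as a mixed disulfide without the cystine transporter. Neither the promoter of the construct nor whether the knockout line is 1 clone is given in the labels, and they list the dimerizer dose with no unit. Since the series holds neither untreated wells at the later times nor cells lacking the construct, time in culture, the ligand and kinase activation cannot be told apart.

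Glutathione is a tripeptide of glutamate, cysteine and glycine and the main small thiol of the cytosol, and cysteine usually limits its synthesis. Cells import cystine through a transporter of SLC7A11 (xCT) and SLC3A2 in exchange for glutamate, join cysteine to glutamate with the GCLC and GCLM ligase, and add glycine with GSS. GSR returns oxidised glutathione to its reduced form, GPX4 spends glutathione to reduce lipid peroxides and so restrains ferroptosis, and CHAC1 and CHAC2 cleave glutathione in the cytosol.

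Total counts per library ran from 8608783 to 16265056, with 26320 to 30889 genes detected and 4.30 to 5.86% of counts from mitochondrial genes. Levels are CPM, counts scaled by the TMM-adjusted library size, given as mean ± SD (n = 3). The cell type markers and the genes that overlap a member (SLC7A11-AS1 and ASB3) are in CPM by total count, without TMM. Changes are log2 fold changes ± SE, and "called" means an adjusted p under 0.05 in edgeR's quasi-likelihood test over 19043 genes. Whether wells of a group came from separate cultures is not labelled, and p values therefore measure only the spread between these samples, which may be technical. Of 11 listed osteosarcoma or osteoblast markers, 6 had a median of at least 1 CPM, among them RUNX2, SPARC and COL1A1. The highest was VIM, with a median of 2245 CPM. COL1A2 and BGLAP had medians of 0.350 and 0.446 CPM, and SP7, IBSP and TWIST1 had a median of 0. The summed level of all 11, which includes VIM, ran from 3299 to 6089 CPM in KO libraries and from 2355 to 5670 CPM in WT libraries. Of 13 markers of other cell types, 6 also had a median of at least 1 CPM, with KRT18 at 599 CPM and KRT8 at 183 CPM, and CD3E and ALB had a median of 0. Their summed level ran from 548 to 1081 CPM in KO libraries and from 521 to 1051 CPM in WT libraries.

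ATF4, the targeted gene, kept its transcript in the knockout. ATF4 stood at 266 ± 7.47 CPM in untreated KO cells and 318 ± 7.29 CPM in untreated WT cells, and at 24 h between 714 and 759.8 CPM in KO libraries and between 689.6 and 713 CPM in WT libraries. The change at 24 h was 1.46 ± 0.03 in KO cells and 1.14 ± 0.03 in WT cells, so gene-level counts do not show the disruption and cannot check the genotype labels.

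The sequence just upstream of a gene is where a factor such as ATF4 can bind, so promoters are shown for CHAC1, whose transcript was nearly lost in KO cells, for SLC3A2 and GCLM, whose rises were smaller there, and for CHAC2, whose rises in the 2 genotypes differed by less than their errors. The RefSeq promoter table for GRCh38.p14 held 6 of the 9 genes in 11 windows, each of 250 bases before to 50 bases after a start, with position 0 at the start. SLC7A11, GSS and GSR had no entry. A pair of motifs was searched on both strands, the C/EBP-ATF response element TGATGNAA, found in 3.62% of all 35116 windows, and the antioxidant response element TGACNNNGC, found in 13.3% of them. Capitals mark the matches below. CHAC1 (chr15:40953221-40953520, plus strand) holds 1 match to the first motif on the opposite strand, at positions -209 to -202. The third SLC3A2 start (chr11:62881449-62881748, plus strand) holds a match to the second motif at -37 to -29 and one to the first, on the opposite strand, at 37 to 44. GCLM (chr1:93909381-93909680, minus strand) holds 1 match to the second motif, on the opposite strand, at -34 to -26. The first CHAC2 window (chr2:53767533-53767832, plus strand) holds no match, and none was found in the other windows of CHAC2, SLC3A2, GCLC or GPX4. The windows shown were chosen with the responses known. GCLC and GPX4 also had lower KO responses at 24 h (-0.82 and -0.26), hold no match in any window and are not shown. Whether matches go with the response was not tested. These matches describe letters in a window and no binding was measured.
CHAC1: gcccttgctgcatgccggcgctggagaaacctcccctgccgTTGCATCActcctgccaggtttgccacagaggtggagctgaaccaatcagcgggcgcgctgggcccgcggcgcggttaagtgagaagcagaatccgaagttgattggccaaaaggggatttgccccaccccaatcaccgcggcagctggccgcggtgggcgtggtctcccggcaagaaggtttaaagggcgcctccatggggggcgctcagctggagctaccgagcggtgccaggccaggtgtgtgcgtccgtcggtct
SLC3A2 start 3: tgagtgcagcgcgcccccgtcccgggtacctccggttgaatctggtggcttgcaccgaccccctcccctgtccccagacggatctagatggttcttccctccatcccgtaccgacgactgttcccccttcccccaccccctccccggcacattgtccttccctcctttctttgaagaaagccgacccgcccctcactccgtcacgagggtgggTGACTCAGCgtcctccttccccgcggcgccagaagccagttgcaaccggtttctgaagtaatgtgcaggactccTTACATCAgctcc
GCLM: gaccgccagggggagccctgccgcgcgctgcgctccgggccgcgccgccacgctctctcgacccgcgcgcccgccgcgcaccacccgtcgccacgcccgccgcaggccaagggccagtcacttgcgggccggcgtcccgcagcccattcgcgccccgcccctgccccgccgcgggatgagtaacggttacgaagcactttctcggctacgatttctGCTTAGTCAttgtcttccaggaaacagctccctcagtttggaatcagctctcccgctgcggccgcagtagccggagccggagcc
CHAC2: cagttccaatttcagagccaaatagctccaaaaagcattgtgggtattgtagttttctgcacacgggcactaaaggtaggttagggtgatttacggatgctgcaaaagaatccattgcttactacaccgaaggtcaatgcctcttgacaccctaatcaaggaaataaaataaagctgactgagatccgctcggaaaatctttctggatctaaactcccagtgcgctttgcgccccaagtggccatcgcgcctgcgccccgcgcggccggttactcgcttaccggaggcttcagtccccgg

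Both genotypes changed these genes, and more of them were called in WT cells than in KO cells at each treated time. In KO cells 2 members rose and 0 fell at 2 h, when 18.3% of all tested genes were called, and 3 rose and 1 fell at 4 h (42.4%). There 5 rose and 1 fell at 8 h (61.9%), 3 rose and 1 fell at 16 h (65.7%), and 7 rose and 1 fell at 24 h (65.4%). In WT cells 4 rose and 1 fell at 2 h (22.6%), 7 rose and 0 fell at 4 h (44.7%), 7 rose and 1 fell at 8 h (59.3%), and 8 rose and 1 fell at both 16 h (66.5%) and 24 h (65.4%). Most genes were called from 8 h on, so these counts carry less than the sizes do. The median change of the 9 genes at 24 h was 0.30 in KO cells and 1.12 in WT cells, beside -0.03 in KO cells and -0.02 in WT cells over all tested genes. The KO counts were the less stable ones. At 2 h 1 member was left without KO replicate 1 or 2 at 0 h or KO replicate 2 at 2 h, and at 4 h 2 were left without KO replicate 2 at 4 h. With 1 library left out, the WT counts ran from 4 to 5 at 2 h and from 5 to 7 at 4 h.

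The difference between the KO and WT responses was tested directly. At 2 h 0 members passed in edgeR (0.299% of all tested genes passed, 0.289% with a lower KO response), and 0 in DESeq2. SLC3A2 was the only one with an unadjusted p under 0.05 at 2 h and was at -0.22 ± 0.06 (adjusted p = 0.22), a difference that passed without WT replicate 2 at 2 h (adjusted p = 0.040). At 4 h 3 members had a lower KO response (3.28% of all called, 2.39% lower), at 8 h 4 (18.3%, 6.99% lower), at 16 h 7 (27.7%, 11% lower) and at 24 h 8 (29.8%, 12.1% lower). Every called difference of the 9 genes was negative. These comparisons share their untreated libraries across times.

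**Figure D1:**
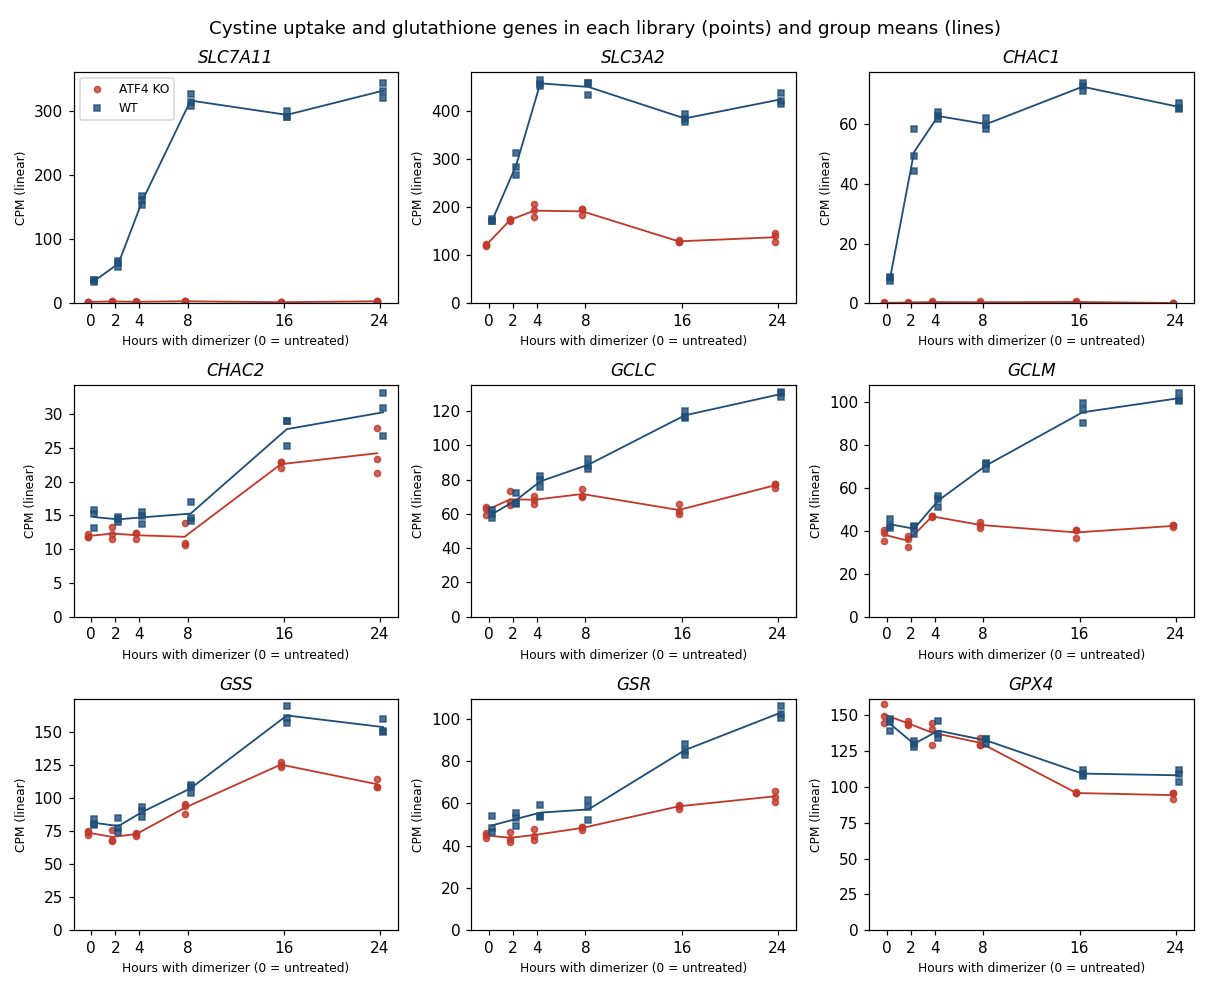
CPM of the 9 genes (linear y axes) against hours with dimerizer, with KO libraries as circles, WT libraries as squares and lines through the group means of 3. SLC7A11 stays at 1.26 to 3.52 CPM in the KO libraries and reaches 320 to 344 CPM in WT libraries at 24 h, whereas CHAC2 climbs in both genotypes at 16 h.

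The light chain of the cystine transporter was far lower in KO than in WT cells at every time. SLC7A11 encodes the light chain that exchanges cystine for glutamate, and lies on chromosome 4 at 138164097 to 138242349 on the minus strand (GRCh38, GENCODE 29). At 24 h it was at 3.08, 2.89 and 3.48 CPM in KO libraries, against 320, 332 and 344 CPM in WT libraries. Untreated, it was at 2.70, 2.14 and 1.81 CPM in KO libraries and 36.3, 35.96 and 32.7 CPM in WT libraries. No KO library at any time came near the lowest WT library.

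The WT course of SLC7A11 climbed for 8 h and then held. It was at 35.0 ± 2.01 CPM untreated, 62.0 ± 4.42 at 2 h, 161 ± 7.18 at 4 h, 317 ± 9.21 at 8 h, 294 ± 5.75 at 16 h and 332 ± 12.1 CPM at 24 h. The WT changes were 0.84 ± 0.06, 2.20 ± 0.05, 3.18 ± 0.05, 3.08 ± 0.05 and 3.25 ± 0.05 at 2, 4, 8, 16 and 24 h (adjusted p = 2.5e-15 or lower in each). In WT cells the steps from 2 to 4 h (1.37 ± 0.05) and from 4 to 8 h (0.98 ± 0.04) were the large ones. The later steps were small, at -0.11 ± 0.04 from 8 to 16 h, a call that ended without WT replicate 2 at 8 h or WT replicate 3 at 16 h (adjusted p up to 0.11), and 0.17 ± 0.04 from 16 to 24 h.

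In KO cells SLC7A11 had 78 summed counts over 3 untreated libraries and 53 to 122 at later times. Its changes were 0.46 ± 0.22 at 2 h, 0.12 ± 0.24 at 4 h and -0.38 ± 0.25 at 16 h, none of them called (lowest adjusted p = 0.15). The KO rise at 8 h was 0.57 ± 0.21 (adjusted p = 0.016) and that at 24 h was 0.56 ± 0.21 (adjusted p = 0.018). Both ended when KO replicate 3 was left out at 0 h or at the treated time, with adjusted p up to 0.13 and 0.14. KO over WT, the difference in level was -4.02 ± 0.12 (log2) when untreated and -6.71 ± 0.07 at 24 h, and the KO change minus the WT change was -2.69 ± 0.24 at 24 h (adjusted p = 3.1e-12). An antisense gene, SLC7A11-AS1, overlaps the locus and had 0 to 0.949 CPM in KO libraries and 0.400 to 3.75 CPM in WT libraries. The libraries were directional, but the strand setting of the counting is not given, so antisense reads within the low KO counts of SLC7A11 cannot be told apart.

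SLC3A2, the heavy chain that carries SLC7A11 and other light chains to the membrane, rose in both genotypes within 2 h, and by 16 h the KO level was again close to its start. It lies on chromosome 11 at 62856102 to 62888875 on the plus strand. KO libraries had 127, 139 and 146 CPM at 24 h, against 415, 419 and 437 CPM in WT libraries. Untreated KO libraries had 124, 118 and 121 CPM and untreated WT libraries 174, 172 and 170 CPM. The KO and WT libraries did not overlap at either time.

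The KO course of SLC3A2 was a passing rise. It stood at 121 ± 2.84 CPM untreated, 173 ± 1.73 at 2 h, 192 ± 13.5 at 4 h, 191 ± 7.39 at 8 h, 129 ± 2.46 at 16 h and 137 ± 9.56 CPM at 24 h. The KO changes were 0.52 ± 0.05, 0.67 ± 0.05 and 0.66 ± 0.05 at 2, 4 and 8 h (adjusted p = 6.2e-11 or lower), then 0.09 ± 0.05 at 16 h, which was not called (adjusted p = 0.10), and 0.19 ± 0.05 at 24 h, which was (adjusted p = 0.00083). The KO step from 8 to 16 h was a fall of 0.57 on the log2 scale (SE 0.05, adjusted p = 1.6e-13).

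The WT course of SLC3A2 reached its highest level by 4 h. It stood at 172 ± 2.21 CPM untreated, 287 ± 22.8 at 2 h, 457 ± 5.99 at 4 h, 449 ± 13.9 at 8 h, 384 ± 7.87 at 16 h and 424 ± 11.4 CPM at 24 h. The WT changes were 0.74 ± 0.04, 1.41 ± 0.04, 1.39 ± 0.04, 1.16 ± 0.04 and 1.30 ± 0.04 at those treated times, all called. The KO change minus the WT change was -0.74 ± 0.06 at 4 h, -0.73 ± 0.06 at 8 h, -1.07 ± 0.07 at 16 h and -1.11 ± 0.06 at 24 h.

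Other carriers that pair with SLC3A2 or bring in glutamate and neutral amino acids were followed as a list of 12, of which 9 were tested. At 24 h 2 rose and 5 fell in KO cells, and 4 rose and 3 fell in WT cells, and 4 responses were lower and 1 higher in KO cells. Over all tested genes 32.4% rose and 33% fell in KO cells at 24 h, and 33% rose and 32.4% fell in WT cells. The KO response was lower for 12.1% of all tested genes and higher for 17.7%. These shares also stand beside the later lists. The median change of the carrier list was -0.65 in KO cells and 0.00 in WT cells. SLC7A5, the light chain of the large neutral amino acid transporter, changed by -0.65 ± 0.05 in KO cells and 1.10 ± 0.04 in WT cells. SLC1A5 changed by 0.95 ± 0.05 in KO cells and 2.10 ± 0.04 in WT cells, and its relative SLC1A4 stood at 17.0 ± 0.562 CPM at 24 h in KO cells and 156 ± 6.47 CPM in WT cells. SLC1A3, a glutamate carrier, fell by 1.02 in KO cells (SE 0.09) and rose by 0.52 ± 0.10 in WT cells.

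The pair of glutathione-cleaving enzymes behaved differently from each other. CHAC1, on chromosome 15 at 40952962 to 40956519 on the plus strand, is an inducible stress gene, and CHAC2 is its slower relative that keeps a basal turnover. CHAC1 was at 0.0961, 0.217 and 0 CPM in KO libraries at 24 h, against 65.1, 67.0 and 65.3 CPM in WT libraries. In untreated cells it was at 0, 0.356 and 0.0646 CPM in KO libraries and 8.50, 8.96 and 7.30 CPM in WT libraries. The highest KO library at any time had 0.718 CPM, below every WT library.

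CHAC1 was the earliest of the 9 genes to approach its final level in WT cells. WT levels were 8.26 ± 0.856 CPM untreated, 50.7 ± 7.03 at 2 h, 62.7 ± 1.13 at 4 h, 60.0 ± 1.87 at 8 h, 72.6 ± 1.37 at 16 h and 65.8 ± 1.05 CPM at 24 h. The WT changes were 2.63 ± 0.10 at 2 h (adjusted p = 5.0e-23) and 2.87 to 3.15 at the later times. In KO cells CHAC1 had 5 summed counts over 3 libraries untreated and 10, 12, 14, 15 and 4 at 2, 4, 8, 16 and 24 h, and none of the KO changes was called. Summed counts per library size were 59.5-fold lower in KO than in WT cells when untreated (exact 95% interval 25.2 to 184) and 636-fold lower at 24 h (248 to 2336), intervals that cover counting error only. The difference of the responses at 24 h was -3.38 ± 1.21 (adjusted p = 0.029), rests on those 5 and 4 counts, and ended without KO replicate 2 at 0 h (-1.85, adjusted p = 0.63) or KO replicate 3 at 24 h (-2.78, adjusted p = 0.080).

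CHAC2, on chromosome 2 at 53767792 to 53775196 on the plus strand, rose late in both genotypes. At 24 h it was at 21.3, 23.3 and 27.9 CPM in KO libraries and 26.8, 33.1 and 30.9 CPM in WT libraries. Without dimerizer it was at 11.7, 11.8 and 12.3 CPM in KO libraries and 15.2, 15.9 and 13.2 CPM in WT libraries. The treated libraries lay above the untreated ones in each genotype, and at 24 h the genotypes overlapped.

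Until 8 h CHAC2 stayed between 10.6 and 13.9 CPM in KO libraries and 13.2 and 17.0 CPM in WT libraries, with no change called at 2, 4 or 8 h in either. The step from 8 to 16 h was 0.94 ± 0.10 in KO cells and 0.87 ± 0.09 in WT cells (adjusted p = 2.0e-10 and 2.3e-10). The change at 24 h was 1.02 ± 0.10 in KO cells and 1.05 ± 0.09 in WT cells, and their difference was -0.02 ± 0.14 with a 95% interval of -0.29 to 0.25. The level of CHAC2 in KO over WT cells was -0.29 ± 0.11 (log2) untreated, a call that ended when any of WT replicates 1 and 2 or the 3 KO libraries was left out (adjusted p up to 0.16), and -0.31 ± 0.08 at 24 h, which ended without WT replicate 2 at 24 h (adjusted p = 0.054). ASB3 overlaps CHAC2 on the other strand with 8.85 to 13.6 CPM, and without the strand setting the reads of the overlap cannot be told apart.

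**Figure D2:**
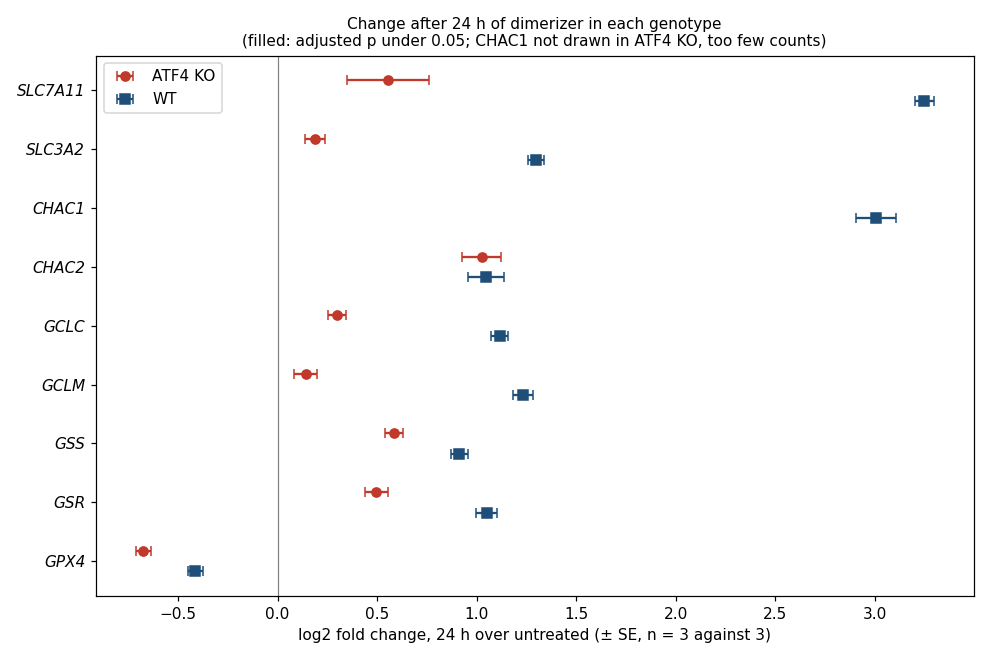
Log2 fold change at 24 h over untreated cells (x axis, ± SE, 3 libraries against 3) for each gene, with KO circles drawn above WT squares and filled points passing an adjusted p under 0.05. CHAC2 overlaps between genotypes at 1.02 and 1.05, while SLC7A11 is at 0.56 in KO cells and 3.25 in WT cells.

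Other genes of glutathione breakdown, export and the gamma-glutamyl cycle moved in both directions in both genotypes. Of 20 listed genes 14 were tested, and at 24 h 7 rose and 5 fell in KO cells and 7 rose and 6 fell in WT cells. Of these 14, 7 had a higher response in KO cells and 3 a lower one, when 17.7% of all tested genes had a higher and 12.1% a lower one. That the list differs from the 9 genes was not tested. The median change of the list was 0.17 in KO cells and 0.21 in WT cells. GGCT, which releases amino acids from gamma-glutamyl peptides, rose by 1.14 ± 0.05 in KO cells and 0.74 ± 0.05 in WT cells (difference 0.40 ± 0.07). LAP3, a leucine aminopeptidase, rose by 1.09 ± 0.05 in KO cells and 0.72 ± 0.05 in WT cells, and SLC25A39, a mitochondrial glutathione carrier, by 0.79 ± 0.04 in KO cells and 0.48 ± 0.04 in WT cells. ABCC3, an organic anion exporter, fell by 1.79 in KO cells (SE 0.08) and by 1.14 in WT cells (SE 0.08).

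The glutathione synthesis genes GCLC, GCLM and GSS were above their untreated level in WT cells from 4 h on, and their rises at 24 h were smaller in KO cells. GCLC, the catalytic subunit of the ligase that makes gamma-glutamylcysteine, lies on chromosome 6 at 53497341 to 53616970 on the minus strand. It was at 77.6, 77.1 and 75.2 CPM in KO libraries at 24 h, against 128, 131 and 130 CPM in WT libraries. Untreated, it was at 59.2, 62.8 and 64.1 CPM in KO libraries and 62.2, 60.0 and 57.4 CPM in WT libraries. The genotypes overlapped at 0 h and were apart at 24 h.

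The WT changes of GCLC were 0.19 ± 0.05, 0.40 ± 0.05, 0.57 ± 0.05, 0.97 ± 0.04 and 1.12 ± 0.04 at 2, 4, 8, 16 and 24 h, all called, though the 2 h call ended without WT replicate 2 at 2 h (adjusted p = 0.050). The KO changes were 0.15 ± 0.05, 0.13 ± 0.05, 0.20 ± 0.05, -0.01 ± 0.05 and 0.30 ± 0.05 in the same order. Those at 2, 4, 8 and 24 h were called, of which the first pair depended on single KO libraries (replicate 1 or 2 at 0 h or 2 at 2 h, with adjusted p up to 0.35; replicate 1 at 0 h or 2 or 3 at 4 h, with adjusted p up to 0.14). The KO change minus the WT change was -0.27 ± 0.07 at 4 h, -0.37 ± 0.07 at 8 h, -0.98 ± 0.07 at 16 h and -0.82 ± 0.06 at 24 h. The 4 h difference ended without replicate 3 of either untreated group or WT replicate 2 at 4 h (adjusted p up to 0.084).

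GCLM, the modifier subunit that makes the ligase more active, lies on chromosome 1 at 93885205 to 93909456 on the minus strand. It was at 42.6, 41.9 and 42.6 CPM in KO libraries at 24 h and 104, 101 and 101 CPM in WT libraries. In untreated cells it was at 39.3, 35.2 and 40.4 CPM in KO libraries and 45.6, 41.4 and 42.4 CPM in WT libraries. The WT libraries at 24 h were all above any KO or untreated library.

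In WT cells GCLM changed by 0.33 ± 0.06 at 4 h, 0.70 ± 0.05 at 8 h, 1.14 ± 0.05 at 16 h and 1.23 ± 0.05 at 24 h, all called. In KO cells it rose by 0.29 ± 0.06 at 4 h, 0.16 ± 0.06 at 8 h and 0.14 ± 0.06 at 24 h, and was at 0.04 ± 0.06 at 16 h (adjusted p = 0.59). The KO calls at 8 and 24 h ended without 1 library (KO replicate 2 at 0 h or 8 h, adjusted p up to 0.17; KO replicate 2 at 0 h or 1 or 3 at 24 h, adjusted p up to 0.22). For GCLM, KO minus WT was -0.55 ± 0.08 at 8 h, -1.10 ± 0.08 at 16 h and -1.09 ± 0.08 at 24 h.

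GSS, which adds glycine to complete glutathione, lies on chromosome 20 at 34928433 to 34956027 on the minus strand and rose in both genotypes. It was at 110 ± 3.38 CPM at 24 h in KO cells and 153 ± 5.55 CPM in WT cells, and untreated at 73.6 ± 1.68 CPM in KO cells and 81.1 ± 2.69 CPM in WT cells. The change at 16 h was 0.77 ± 0.05 in KO cells and 1.00 ± 0.04 in WT cells, and at 24 h 0.58 ± 0.05 in KO cells and 0.91 ± 0.04 in WT cells. The difference of the GSS responses, KO minus WT, was -0.23 ± 0.06 at 16 h and -0.33 ± 0.06 at 24 h, both called, beside -0.82 and -1.09 at 24 h for the ligase subunits.

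**Figure D3:**
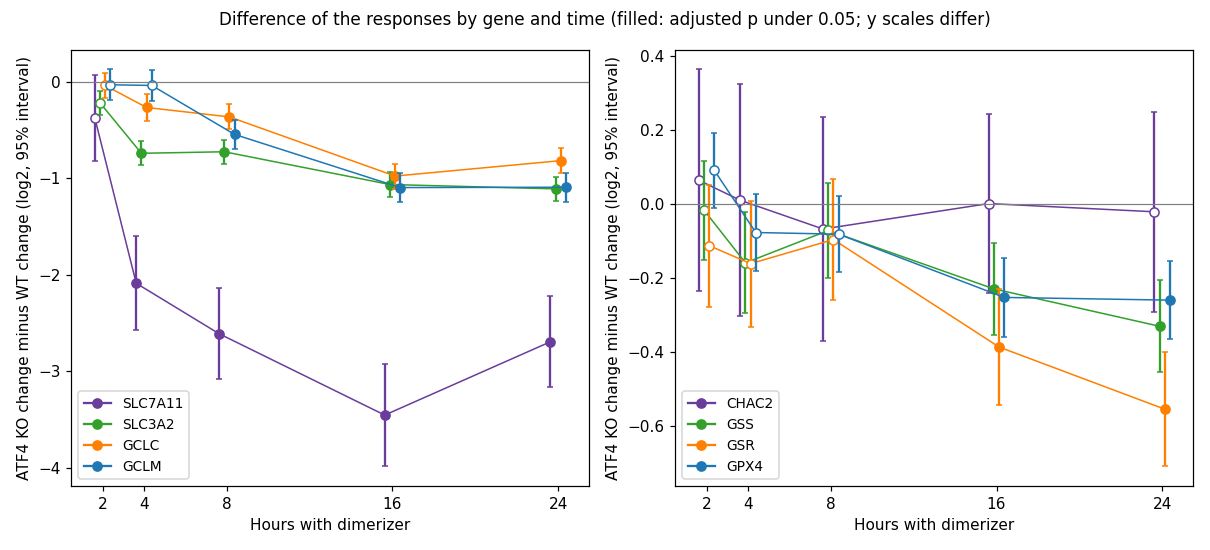
KO change minus WT change (y axis, log2, with 95% intervals) against hours with dimerizer, for SLC7A11, SLC3A2, GCLC and GCLM on the left and CHAC2, GSS, GSR and GPX4 on the right, where the y scale is finer. Filled points passed an adjusted p under 0.05; SLC7A11 is the lowest of those drawn at -3.45 at 16 h and CHAC2 stays near 0.

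Genes that supply or use cysteine formed a list of 13, of which 12 were tested. At 24 h 5 rose and 4 fell in KO cells, 7 rose and 1 fell in WT cells, and 4 responses were lower and 1 higher in KO cells. Of all tested genes 65.4% were called in each genotype, and 12.1% had a lower and 17.7% a higher KO response. The median of the cysteine list was 0.20 in KO cells and 0.29 in WT cells. CTH, which releases cysteine from cystathionine, was at 7.95 ± 0.311 CPM at 24 h in KO cells and 104 ± 3.46 CPM in WT cells, with changes of 0.32 ± 0.11 in KO cells, which ended without KO replicate 3 at 24 h, and 3.32 ± 0.06 in WT cells. CBS, which makes cystathionine, changed by 0.32 ± 0.13 in KO cells, a call that ended without KO replicate 2 at 0 h or KO replicate 2 or 3 at 24 h, and by 1.75 ± 0.06 in WT cells. CBS has a near-identical copy, CBSL, so its counts are uncertain. GOT1, an aspartate aminotransferase that can also act on cysteine, changed by -0.18 ± 0.06 in KO cells and 1.68 ± 0.05 in WT cells.

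The enzymes that recycle and spend glutathione changed in opposite directions, GSR up and GPX4 down, with their larger changes at 16 and 24 h. GSR, the reductase, lies on chromosome 8 at 30678061 to 30727999 on the minus strand. It was at 65.9, 63.2 and 60.8 CPM in KO libraries at 24 h, against 100, 106 and 102 CPM in WT libraries. Without dimerizer it was at 45.9, 43.6 and 44.9 CPM in KO libraries and 54.0, 48.5 and 46.2 CPM in WT libraries. Both genotypes rose without overlap between 24 h and untreated libraries.

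GSR changed by 0.39 ± 0.06 at 16 h and 0.50 ± 0.06 at 24 h in KO cells, and by 0.77 ± 0.05 at 16 h and 1.05 ± 0.05 at 24 h in WT cells. The WT rises at 4 h (0.16 ± 0.06) and 8 h (0.21 ± 0.06) were called although treated and untreated libraries overlapped, and the first ended without WT replicate 3 at 0 h or 4 h (adjusted p up to 0.17). The KO change minus the WT change of GSR was -0.39 ± 0.08 at 16 h and -0.55 ± 0.08 at 24 h (adjusted p = 2.6e-07).

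GPX4, the lipid peroxide reductase, was the only one of the 9 that fell in both genotypes. It lies on chromosome 19 at 1103926 to 1106791 on the plus strand. It was at 91.6, 95.5 and 95.5 CPM in KO libraries at 24 h and 111, 109 and 103 CPM in WT libraries. Untreated, it was at 144, 158 and 149 CPM in KO libraries and 148, 139 and 145 CPM in WT libraries. The KO and WT libraries overlapped when untreated and were apart at 24 h.

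GPX4 fell by 0.65 on the log2 scale at 16 h and by 0.67 at 24 h in KO cells (SE 0.04 each), and by 0.40 at 16 h and by 0.41 at 24 h in WT cells (SE 0.04 each). The KO step from 8 to 16 h was -0.45 ± 0.04 and the WT step -0.28 ± 0.04. For GPX4, KO minus WT was -0.25 ± 0.05 at 16 h and -0.26 ± 0.05 at 24 h (adjusted p = 0.00017). Smaller falls were called earlier, at 8 h in KO cells (-0.20 ± 0.04) and at 2 h (-0.15 ± 0.04) and 8 h (-0.12 ± 0.04) in WT cells, where the 4 h value of -0.05 ± 0.04 was not called. The KO fall at 4 h, -0.13 ± 0.04, ended without KO replicate 2 at 0 h or 4 h (adjusted p up to 0.11).

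GPX4 is a selenoprotein, and 9 genes of selenoprotein synthesis were all tested. At 24 h 6 rose and 0 fell in KO cells, and 5 rose and 1 fell in WT cells. Of all tested genes 32.4% rose in KO cells and 33% in WT cells. The list's median change was 0.37 in KO cells and 0.16 in WT cells. SEPHS2, the selenophosphate synthetase, changed by 0.10 ± 0.06 in KO cells and 0.91 ± 0.06 in WT cells (difference -0.81 ± 0.08). LRP8, a receptor that can take up selenoprotein P, rose by 0.83 ± 0.07 in KO cells and 0.87 ± 0.07 in WT cells, and SEPSECS and SCLY also rose in both.

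Of 15 regulators of lipid peroxidation and ferroptosis 13 were tested, with 4 higher and 6 lower in KO cells at 24 h and 7 higher and 4 lower in WT cells. Their difference was called for 4 genes, all lower in KO cells, when 29.8% of all tested genes were called and 12.1% were lower. For the list the median was -0.03 in KO cells and 0.33 in WT cells. ALOX5, a lipoxygenase, fell by 1.82 in KO cells and by 1.85 in WT cells (SE 0.10 each). DHODH, a mitochondrial enzyme that reduces ubiquinone, rose by 1.45 ± 0.09 in KO cells and 1.18 ± 0.09 in WT cells, and TFRC, the transferrin receptor, by 0.43 ± 0.03 in KO cells and 0.51 ± 0.03 in WT cells. POR, a reductase that can feed lipid peroxidation, fell by 0.82 in KO cells and by 0.57 in WT cells (SE 0.05 each).

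Of 28 other enzymes that use glutathione 25 were tested, with 8 rising and 15 falling in KO cells at 24 h (median -0.66), and 5 rising and 15 falling in WT cells (median -0.51). Over all tested genes the share that fell at 24 h was 33% in KO cells and 32.4% in WT cells, and the medians were -0.03 in KO cells and -0.02 in WT cells. The KO response at 24 h was higher for 8 of the 25 and lower for 3, beside 17.7% higher and 12.1% lower over all tested genes. The transferase genes GSTM4 and MGST3 fell by 1.46 and by 1.04 in KO cells and by 1.48 and by 1.39 in WT cells. GLRX, the cytosolic glutaredoxin, fell by 1.70 in KO cells (SE 0.05) and by 0.71 in WT cells (SE 0.05), while GLRX3 rose by 1.17 ± 0.04 in KO cells and 0.90 ± 0.05 in WT cells.

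The thioredoxin system, which shares work with glutathione, gave 7 higher and 4 lower of 14 tested genes in KO cells at 24 h and 8 higher and 5 lower in WT cells. Over all tested genes 65.4% were called in each genotype at that time. The median change of the thioredoxin list was 0.14 in KO cells and 0.22 in WT cells. TXNRD1, the cytosolic thioredoxin reductase, was at 357 ± 7.27 CPM at 24 h in KO cells and 983 ± 9.82 CPM in WT cells. Its change was -0.02 ± 0.04 in KO cells and 1.28 ± 0.04 in WT cells. SRXN1, which restores peroxiredoxins, rose by 0.67 ± 0.04 in KO cells and 1.85 ± 0.04 in WT cells. TXNRD2, the mitochondrial reductase, was at -0.03 ± 0.03 in KO cells and fell by 0.85 in WT cells (SE 0.04).

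GSR needs NADPH, and of 12 genes of NADPH supply 2 rose and 6 fell in KO cells at 24 h, against 6 and 4 in WT cells, with 6 responses lower and 1 higher in KO cells. Among all tested genes 65.4% were called in each genotype, and 12.1% had a lower and 17.7% a higher KO response. The list had a median of -0.29 in KO cells and 0.17 in WT cells. IDH1, the cytosolic isocitrate dehydrogenase, was at 11.9 ± 0.929 CPM at 24 h in KO cells and 142 ± 6.42 CPM in WT cells, and it changed by -2.41 ± 0.08 in KO cells and 1.26 ± 0.05 in WT cells. ALDH1L2, a mitochondrial folate enzyme that makes NADPH, was at 1.37 ± 0.279 CPM in KO cells and 118 ± 3.15 CPM in WT cells at 24 h.

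Before treatment 6 of the 9 genes were lower in KO than in WT cells and 0 were higher, when 23.5% of all tested genes were called and 11.9% were lower. SLC7A11, CHAC1 and SLC3A2 (-0.51 ± 0.05) led these. The differences of GCLM (-0.17 ± 0.06) and GSS (-0.14 ± 0.05) were small, as was that of CHAC2, and all of them missed the threshold without WT replicate 1 or KO replicate 2 at 0 h. Then 3 genes were left. GCLC, GSR and GPX4 were not called, at 0.06 ± 0.05, -0.15 ± 0.06 and 0.06 ± 0.04.

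With treatment the count lower in KO cells was 6 at 2 h (21.5% of all tested genes called, 11.3% lower), 7 at 4 h (27.1%, 14.3% lower), 8 at 8 h (34.6%, 14.5% lower), 9 at 16 h (36.2%, 14.7% lower) and 9 at 24 h (38.1%, 15.6% lower). The 1 gene higher in KO cells was GPX4 at 2 h, by 0.15 ± 0.04. At 24 h the level in KO over WT cells was -1.62 ± 0.04 for SLC3A2, -1.27 ± 0.05 for GCLM, -0.76 ± 0.04 for GCLC, -0.71 ± 0.05 for GSR, -0.47 ± 0.04 for GSS and -0.20 ± 0.04 for GPX4 (log2). At 2 h the GCLM and GSS differences ended without some single libraries, namely KO replicate 1 or WT replicate 2 for GCLM (adjusted p up to 0.092) and KO replicate 2 or 3 or WT replicate 1 for GSS (adjusted p up to 0.15). At 8 h that of CHAC2 ended without KO replicate 3 or WT replicate 1 (adjusted p up to 0.089).

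The steps between neighbouring times placed the changes in time. In KO cells 2 members rose and 0 fell from 2 to 4 h (33.6% of all genes called), 1 rose and 0 fell from 4 to 8 h (43.5%), 3 rose and 4 fell from 8 to 16 h (52.0%), and 2 rose and 1 fell from 16 to 24 h (17.6%). In WT cells 7 rose from 2 to 4 h (36.7%), 4 from 4 to 8 h (36%) and 4 from 16 to 24 h (16.3%), with 0 falling, while 6 rose and 3 fell from 8 to 16 h (47.8%). The 3 WT falls from 8 to 16 h were SLC7A11, SLC3A2 and GPX4. The 4 KO falls were SLC7A11, SLC3A2, GCLC and GPX4. The single KO rise from 4 to 8 h was GSS at 0.34 ± 0.05, and 3 were called when KO replicate 2 at 4 h or KO replicate 2 at 8 h was left out and 2 without KO replicate 3 at 4 h. From 2 to 4 h the KO rise of SLC3A2 (0.15 ± 0.05) ended without KO replicate 2 or 3 at 4 h. The WT rises from 2 to 4 h included GPX4, at 0.07 to 0.13 with 1 library left out. That call ended in 3 of those fits (adjusted p up to 0.19). The WT rises of GCLC from 4 to 8 h and SLC3A2 from 16 to 24 h each ended in 1 such fit (adjusted p up to 0.054 and 0.057).

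Per transcript length, the order of these genes differed by time and genotype. The deposited TPM of the untreated KO columns did not match the counts of the same names, so TPM levels are given for the other groups. At 24 h in KO cells GPX4 was highest at 215 ± 3.38 TPM, then SLC3A2 at 128 ± 7.32, GSS at 87.9 ± 1.16, GCLC at 47.2 ± 6.42, GSR at 37.7 ± 5.75, CHAC2 at 29.3 ± 3.70 and GCLM at 23.5 ± 0.873 TPM. Only GCLC and GSR overlapped among neighbours there. SLC7A11 and CHAC1 came last, near the smallest deposited value of 0.102292 TPM.

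At 24 h in WT cells SLC3A2 was highest at 418 ± 16.9 TPM, then GPX4 at 247 ± 9.09, GSS at 123 ± 4.67, GCLC at 79.5 ± 2.60, CHAC1 at 69.1 ± 0.916, GSR at 58.9 ± 2.02, GCLM at 53.9 ± 4.19, SLC7A11 at 50.6 ± 2.54 and CHAC2 at 37.0 ± 4.01 TPM. GSR and GCLM overlapped, as did GCLM and SLC7A11. In untreated WT cells the order was GPX4 at 340 ± 6.28, SLC3A2 at 164 ± 4.30, GSS at 67.4 ± 2.15, GCLC at 38.9 ± 0.863, GSR at 31.2 ± 2.72, GCLM at 20.9 ± 1.64, CHAC2 at 18.4 ± 1.82, CHAC1 at 8.52 ± 0.929 and SLC7A11 at 5.24 ± 0.320 TPM. There only GCLM and CHAC2 overlapped.

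The balance within each pair of partners or relatives shifted in WT cells. The TPM ratio of SLC3A2 over SLC7A11 was 31.3 ± 1.59 untreated, 28.8 ± 0.642 at 2 h, 18.4 ± 1.37 at 4 h, 8.95 ± 0.447 at 8 h, 8.32 ± 0.147 at 16 h and 8.26 ± 0.0931 at 24 h (SD, n = 3). The CHAC1 over CHAC2 ratio was 0.462 ± 0.00501 untreated, 3.61 ± 0.331 at 4 h and 1.88 ± 0.198 at 24 h. The ratio of GCLC over GCLM at 24 h was 2.01 ± 0.313 in KO cells and 1.48 ± 0.0948 in WT cells, with ranges of 1.73 to 2.35 in KO libraries and 1.38 to 1.57 in WT libraries. It was 1.87 ± 0.182 in untreated WT cells. The ratios are descriptions, since an exact permutation test of 3 libraries against 3 cannot go below 0.10.

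**Figure D4:**
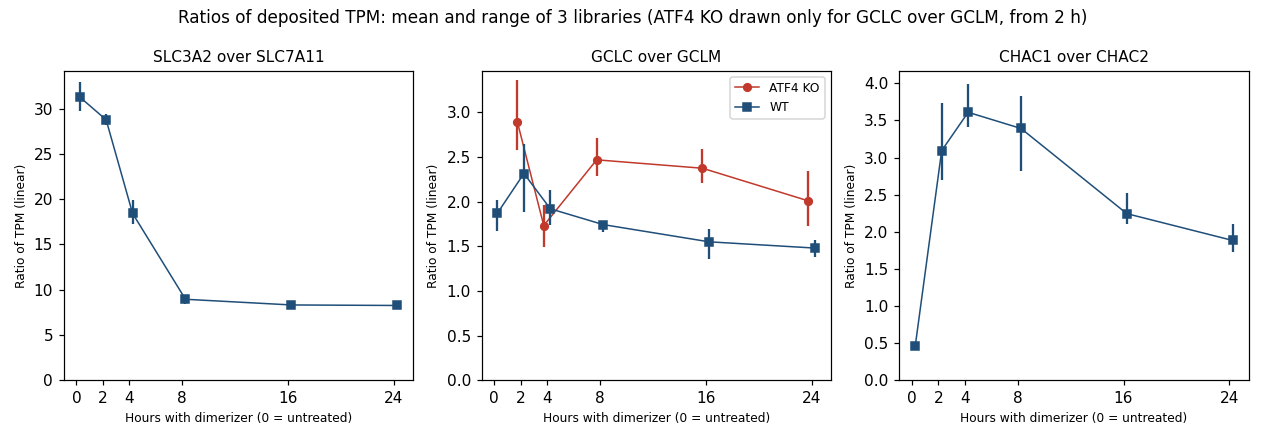
Ratio of deposited TPM (linear y axes) within 3 pairs of genes against hours with dimerizer, as mean with the range of 3 libraries, KO circles and WT squares. In WT cells SLC3A2 over SLC7A11 falls with time to 8.26 at 24 h and CHAC1 over CHAC2 is highest at 3.61 at 4 h; KO points are drawn only for GCLC over GCLM.

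Genes with the most similar courses were found by Pearson's r over the 12 group means of log2 CPM, among 10522 genes averaging 10 CPM or more, as a description over groups that share libraries with the fits. Over all 12 groups r includes the gap in level between genotypes. SLC7A11 was most like ALDH1L2 (r = 0.998), CARS (0.994) and CBS (0.991), and CHAC1 most like CBS (0.978), SLC7A11 (0.975) and ALDH1L2 (0.972). Within genotypes SLC7A11 and CHAC1 had r = -0.424 over the 6 KO groups, where CHAC1 had few counts, and 0.815 over the 6 WT groups. SLC3A2 was nearest to TSC22D3 (0.961), GCLC to TJAP1 (0.967) and GCLM to GFPT1 (0.977). CHAC2 was nearest to RAD51C (0.987), PARP2 (0.985) and CENPK (0.985), GSS to TSN (0.987), GSR to MPC1 (0.989) and GPX4 to GLB1 (0.987). Among the 9 genes themselves GCLC and GCLM had r = 0.949 over all 12 groups, 0.396 over the 6 KO groups and 0.978 over the 6 WT groups. CHAC2 and GPX4 ran opposite, with r = -0.968 over the KO groups and -0.954 over the WT groups.

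Regulators of these genes formed a list of 10, all tested, of which 4 rose and 6 fell in KO cells at 24 h and 8 rose and 2 fell in WT cells. Of all tested genes 65.4% were called at 24 h in each genotype. As a median, the list was at -0.38 in KO cells and 0.77 in WT cells. CEBPG, a bZIP partner of ATF4, rose by 1.90 ± 0.07 in KO cells and 1.91 ± 0.05 in WT cells, and stood at 78.5 ± 7.09 CPM in KO cells and 147 ± 2.21 CPM in WT cells at 24 h. NFE2L1 changed by -0.18 ± 0.03 in KO cells and 1.10 ± 0.03 in WT cells. BACH1, a repressor at antioxidant response elements, fell by 0.93 in KO cells and by 0.67 in WT cells (SE 0.04 each). NFE2L2, which encodes NRF2, an activator of GCLC and GCLM, was singled out after its values were seen. It was at 93.7 ± 2.31 CPM at 24 h in KO cells and 183 ± 8.03 CPM in WT cells, with changes of -0.58 ± 0.04 in KO cells and 0.45 ± 0.04 in WT cells.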

How the data were processed

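All 36 libraries are in both deposited gene tables. Per the labels, total RNA was made into directional libraries and sequenced on a NovaSeq instrument, and per the submitters' processing notes the tools were FastQC 0.11.5 and Salmon 0.9.1, with the build GRCh38. The first table holds estimated counts per gene deposited by the authors, with 72.0 to 78.9% of values whole (tolerance 1e-06), which were rounded here before fitting. The second holds TPM deposited by the authors, with a smallest value of 0.102292. The annotation release, the strand setting and the summing to genes are not given in the sources used here, neither in labels nor headers.

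Of 36 libraries, 33 correlated best with the TPM column of their own name, over 10521 genes averaging 10 CPM or more by total count. The exceptions were the 3 untreated knockout libraries. The third had r = 0.497 with its own TPM column, which was left out of the TPM fits. Counts are the basis of all tests.

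Genes were filtered with filterByExpr by group, scaled by TMM and fitted with 1 mean for each of the 12 groups by edgeR 4.0.16 (quasi-likelihood test, in R 4.3.3 with limma 3.58.1). Benjamini-Hochberg adjustment ran over 19043 genes within each of 29 contrasts. The alternatives were RLE scaling, no filter, the replicate number as a block, a fit of only the contrast's groups, DESeq2 1.42.0, limma on log2(TPM + 1) and log2(TPM + 0.1), and each library left out. The fit was tested on simulated data. Replicate pairs were compared for duplicates, with a chi-square per degree of freedom of 1.33 to 2.42. Of 57665 identifiers 57068 matched GENCODE 29 without the version, and positions are from that release.

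The genes, the context lists and the alternatives were chosen with earlier results of these data known. From each list up to 4 genes with the smallest adjusted p at 24 h were named, besides the 3 most similar courses per gene. SQOR of the cysteine list was not analysed here, and not every gene that the naming rule selects is reported here. No label states that wells sharing a number belong together.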

Additional observations from a re-analysis of the deposited data

Results flagged for a closer look

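The KO and WT responses differed by a direct test in 22 of the comparisons of 9 genes at 5 times, always with a lower KO response (edgeR, adjusted p under 0.05, log2 scale). For SLC7A11 the KO response minus the WT response was -2.09 at 4 h, -2.61 at 8 h, -3.45 at 16 h and -2.69 at 24 h. For SLC3A2 it was -0.74 at 4 h, -0.73 at 8 h, -1.07 at 16 h and -1.11 at 24 h. For GCLC it was -0.27 at 4 h, -0.37 at 8 h, -0.98 at 16 h and -0.82 at 24 h, and for GCLM -0.55 at 8 h, -1.10 at 16 h and -1.09 at 24 h. GSS differed by -0.23 at 16 h and -0.33 at 24 h, GSR by -0.39 at 16 h and -0.55 at 24 h, and GPX4 by -0.25 at 16 h and -0.26 at 24 h. CHAC1 differed by -3.38 at 24 h, on 4 counts in treated and 5 in untreated KO cells.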

How the results depend on the processing

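No called change or difference of the 9 genes reversed its direction under any alternative run. Alternative values were followed for 177 results, namely all those called in the reported fit and some chosen uncalled ones. Of these 2457 values 2278 kept both direction and side of the threshold, while 148 lost the call and 3 gained one. Gains among the other uncalled results are not in these numbers. Most losses came with TPM, 38 with log2(TPM + 1) and 37 with log2(TPM + 0.1), and the cause was not tested. The number of genes called moved by over 1.5 times in 11 of 29 comparisons. In KO cells at 2 h it was 1 against 2 without the filter, with only the contrast's groups and with either TPM fit, and at 8 h 3 against 6 with either TPM fit. For the difference of responses at 2 h it was 1 without the filter and 2 with log2(TPM + 1), against 0. KO against WT untreated gave 3 against 6 without the filter and with DESeq2, and at 4 h 4 against 7 with either TPM fit. With either TPM fit the WT step from 2 to 4 h gave 4 against 7, the WT step from 16 to 24 h gave 0 against 4, and the KO steps gave 1 against 2 from 2 to 4 h, 3 against 1 from 4 to 8 h (2 with only the contrast's groups) and 1 against 3 from 16 to 24 h. Leaving out 1 library gave 1 to 2 genes in KO cells at 2 h and 2 to 4 at 4 h, 0 to 1 for the difference at 2 h, 3 to 7 for KO against WT untreated, 1 to 2 for the KO step from 2 to 4 h and 1 to 3 for that from 4 to 8 h. Values that changed sign had not been called. The difference of CHAC2 at 16 h was 0.00 in the reported fit. It was -0.0037 with RLE scaling, -0.0028 with DESeq2, -0.0020 with the replicate block, -0.013 without the filter, -0.040 with only the contrast's groups, -0.038 with log2(TPM + 1), -0.034 with log2(TPM + 0.1), and -0.067 to 0.080 with 1 library left out, and at 24 h it was -0.17 to 0.056 with 1 library left out. GCLC in KO cells at 16 h was 0.19 with either TPM fit and -0.040 to 0.035 with 1 library left out, GCLM -0.015 to 0.095, and SLC7A11 in KO cells at 4 h -0.10 to 0.27. The labels do not say that replicate numbers pair the wells. As a hint from the data, 26 of 36 libraries correlated best with their own number, but every same-number pair was over 0.1 in only 1 of 29 contrasts, KO against WT at 4 h. The reported values come from the fit without the block. The replicate block changed the CHAC2 sign above (-0.0020) and ended no call of the 9 genes. Depth limited CHAC1 and SLC7A11 in KO cells, where few counts set the errors.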
